A study of Mus musculus with 6 samples.

Results

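Efferocytosis, the removal of dying cells by phagocytes, was followed at the mRNA level through 10 genes, the receptors Axl, Mertk, Tyro3 and Cd300a, the bridging ligands Gas6, Pros1 and Mfge8, the engulfment adaptors Elmo1 and Dock1 and the scramblase Xkr8. They were chosen by name, and each matched 1 row of the 60832 in the deposited gene table. The libraries were RNA-seq of primary mouse liver sinusoidal endothelial cells (LSECs), which form the wall of the hepatic sinusoids. The cells were labeled as isolated from colorectal cancer liver metastasis (CRCLM) xenografts of the human colorectal cancer line HCT116, and as kept in culture for 24 h. There were 3 libraries from bevacizumab-sensitive xenografts and 3 from bevacizumab-resistant xenografts; bevacizumab is an antibody against the angiogenic factor VEGF-A. By the study's methods, the xenograft hosts were male BALB/c nude mice, which lack a thymus and mature T cells, resistance was acquired by prolonged dosing with bevacizumab, vehicle animals received IgG, and LSECs were captured with beads against CD146, the product of Mcam. No genetic change separated the groups, and the labels do not say whether each library came from a separate mouse, so p-values measure only the spread between these libraries, which may be technical.

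A dying cell exposes the lipid phosphatidylserine on its outer membrane, where phagocytes recognize it. Axl, Mertk and Tyro3 form the TAM family of receptor tyrosine kinases, which do not touch the lipid themselves: the secreted proteins Gas6 and Pros1 (protein S) hold the lipid with one end and the receptor with the other. In the liver, Mertk is known as a receptor of Kupffer cells, the resident macrophages, and both macrophages and endothelial cells are known sources of Gas6 and Pros1.

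The promoter sequences of the main receptor pair, Axl and Mertk, and of their ligand pair, Gas6 and Pros1, are shown because the balance within each pair is followed below. Each is the 250 bases before the RefSeq start of the gene (GRCm38.p6), written 5′ to 3′ on the strand of the gene, with capitals marking GGGCGG or its reverse complement, the core of a GC box, overlapping matches included. The windows lie at chr7:25788734-25788983 on the minus strand for Axl, chr2:128698665-128698914 on the plus strand for Mertk, chr8:13494536-13494785 on the minus strand for Gas6 and chr16:62854057-62854306 on the plus strand for Pros1.
Axl: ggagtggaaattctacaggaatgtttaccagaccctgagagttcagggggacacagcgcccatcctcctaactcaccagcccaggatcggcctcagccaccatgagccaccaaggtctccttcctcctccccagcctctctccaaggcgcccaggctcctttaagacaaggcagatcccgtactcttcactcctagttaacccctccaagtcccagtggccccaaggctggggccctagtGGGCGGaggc
Mertk: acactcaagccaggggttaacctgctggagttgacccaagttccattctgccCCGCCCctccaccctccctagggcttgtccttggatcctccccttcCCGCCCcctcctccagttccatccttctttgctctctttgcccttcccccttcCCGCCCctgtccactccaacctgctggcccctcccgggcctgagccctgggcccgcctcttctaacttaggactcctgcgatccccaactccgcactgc
Gas6: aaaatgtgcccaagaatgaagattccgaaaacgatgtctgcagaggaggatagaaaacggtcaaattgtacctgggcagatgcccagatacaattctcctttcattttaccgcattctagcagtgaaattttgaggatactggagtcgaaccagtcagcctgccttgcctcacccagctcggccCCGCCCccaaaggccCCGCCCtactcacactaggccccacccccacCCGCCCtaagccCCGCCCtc
Pros1: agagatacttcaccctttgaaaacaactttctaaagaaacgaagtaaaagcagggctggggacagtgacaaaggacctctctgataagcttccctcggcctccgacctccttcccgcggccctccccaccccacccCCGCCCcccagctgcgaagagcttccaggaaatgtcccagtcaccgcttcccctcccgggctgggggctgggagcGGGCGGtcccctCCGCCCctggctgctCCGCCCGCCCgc
The Axl window held 1 such match and 60.0% G or C, the Mertk window 3 and 63.6%, the Gas6 window 4 and 54.8%, and the Pros1 window 5 and 64.4%. RefSeq windows were at hand for 9 of the 10 genes, 10 windows in all, and 8 of these held GGGCGG on either strand, as did 32.7% of 32851 windows of all genes. TATAAA, the core of a TATA box, was present in 1 of the 10, a window of Elmo1, and in 12.4% of all windows. These matches are descriptions of the letters only.

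Total counts on genes were between 17599326 and 20726684 per library, so that 3 counts, taken as the floor of detection for counting error only, correspond to 0.145 to 0.170 CPM (a gene's count over its library's total, scaled to the same sum in every library). The libraries are labeled as LSECs, but the summed level of 18 macrophage and Kupffer cell markers, led by Marco, Cd5l and Lyz2, was 27410 to 41950 CPM in the sensitive group and 31080 to 34120 CPM in the resistant group. The sum over 14 LSEC markers was 2993 to 7129 CPM across the 6 libraries, of which 1565 to 5759 CPM were Ctsl, a lysosomal protease of many cell types, and 822 to 1413 CPM remained without Ctsl and Mrc1, the latter also a macrophage marker. Of this remainder, 463 to 774 CPM were Stab1. Stab2, a scavenger receptor that marks LSECs, was at 29.1 to 142 CPM. The sum over 13 pan-endothelial markers was 274 to 518 CPM in the sensitive group and 78.3 to 444 CPM in the resistant group. Mcam itself was at 0.304 to 3.84 CPM, whereas the Kupffer cell marker Clec4f was at 1750 to 4875 CPM. The sum over 9 neutrophil markers ran from 641 to 6846 CPM in the sensitive and from 335 to 2065 CPM in the resistant group. Of the lymphocyte markers, only Klrb1c was at 0 in every library, and Gzma reached 3.98 CPM in sensitive replicate 2. Replicate 2 of the sensitive group stood apart, with a Pearson's r across genes of 0.860 to 0.901 with the other libraries, which correlated with each other at 0.954 to 0.974, and with a sum of FPKM (CPM divided by the gene's exon length in kilobases) of 410402 against 323020 to 331756.

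All 10 genes were above the floor in all 6 libraries, and all passed the filter on low counts. Levels of different genes were compared on the deposited FPKM scale, which accounts for length. Axl was the most abundant of the 10, at 142 ± 38.5 FPKM (SD, n = 6 libraries), above 98.0% of the 15474 genes tested. Mertk followed at 88.3 ± 32.0 FPKM, and Cd300a, an inhibitory receptor for phosphatidylserine and phosphatidylethanolamine on myeloid cells, at 79.8 ± 8.89 FPKM. The lowest of these 3 receptors, Cd300a, was thus still above 96.1% of the genes tested.

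The ligands lay below these 3 receptors. Gas6 was at 22.2 ± 8.26 FPKM and Pros1 at 15.5 ± 5.67 FPKM (SD, n = 6). Elmo1, Dock1 and Mfge8 sat close together at 5.76 ± 2.22, 5.28 ± 1.26 and 5.24 ± 1.34 FPKM, near the middle of the genes tested. Xkr8, the caspase-activated scramblase that exposes phosphatidylserine in a dying cell, was at 1.73 ± 0.509 FPKM. Tyro3, the third TAM receptor, was lowest at 0.225 ± 0.046 FPKM, with 20 to 33 counts per library, and 5.36% of the genes tested were lower.

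Neighbors in this order were compared within libraries on the log2 FPKM scale, 9 pairs in all. The order was taken from the means of the same libraries, so the differences are a description. Axl exceeded Mertk in 6 of 6 libraries by 0.76 ± 0.30 (SD), as Cd300a exceeded Gas6 by 1.93 ± 0.67, Pros1 exceeded Elmo1 by 1.48 ± 0.69, Mfge8 exceeded Xkr8 by 1.61 ± 0.52 and Xkr8 exceeded Tyro3 by 2.92 ± 0.70. Gas6 also exceeded Pros1 in 6 of 6 libraries, by 0.50 ± 0.55, with a ratio of FPKM of 1.06 to 1.10 in the sensitive and 1.40 to 2.84 in the resistant group. The other 3 pairs did not keep their order. Mertk was above Cd300a in 5 of 6 libraries with a mean difference of 0.02 ± 0.86, Elmo1 above Dock1 in 3 of 6 with 0.03 ± 0.49, and Dock1 above Mfge8 in 3 of 6 with 0.01 ± 0.58.

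**Figure D1:**
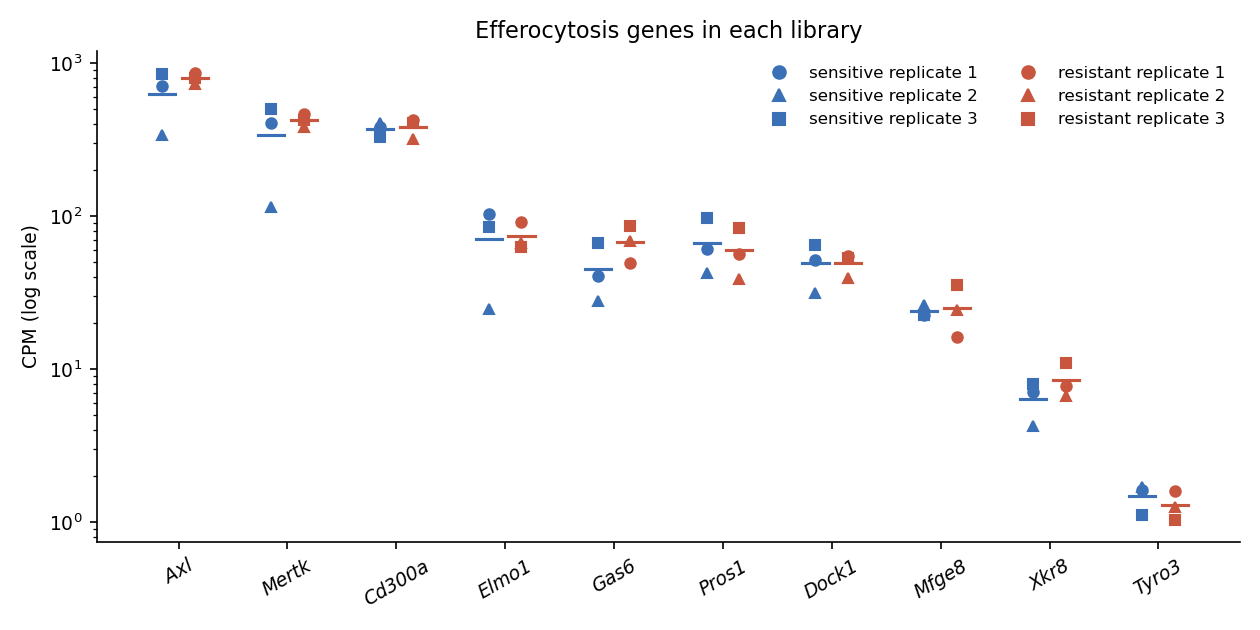
Level of each of the 10 efferocytosis genes in CPM (log axis) in each library, with sensitive libraries in blue and resistant libraries in red, 1 marker shape per replicate number and the group mean as a bar. For every gene the ranges of the groups overlap, and the blue triangle, sensitive replicate 2, is the lowest point for 6 of the genes, among them Mertk at 114 CPM.

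The comparison of interest was whether these genes differed between the resistant and the sensitive group. None of the 10 did so by the test across all genes. The quasi-likelihood test of edgeR called 0 of the 10 at a threshold of 0.05 after Benjamini-Hochberg adjustment (0% of all genes tested) and 0 of the 10 before adjustment (3.08% of all genes). DESeq2's Wald test and limma-voom also gave 0 of 10, adjusted or not. The groups were free of overlap for 0 of the 10 genes, where this was so for 8.39% of all genes tested. Log2 fold changes, resistant minus sensitive, were above 0 for 6 genes and below 0 for 4, with a median of 0.03 and a range from -0.27 to 0.55, beside a median of 0.01 over all genes tested. Without sensitive replicate 2 they were above 0 for 5 and below 0 for 5, with a median of -0.02. In bulk libraries such as these, fewer cells of a type and less RNA per cell cannot be told apart.

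Among the receptors, Axl was at 708, 339 and 847 CPM in sensitive replicates 1, 2 and 3 and at 860, 735 and 802 CPM in resistant replicates 1, 2 and 3. The resistant libraries lay close together, while the sensitive group held both a library near the resistant level and the lowest of all. Its means were 631 ± 263 and 799 ± 63.0 CPM (SD, n = 3 each), and its log2 fold change was 0.30 (SE, the standard error, 0.309, adjusted p = 0.940 by edgeR). The log2 fold change was 0.03 without sensitive replicate 2 and 0.58 without sensitive replicate 3.

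Mertk showed the same arrangement with a wider gap. It was at 404, 114 and 503 CPM in the sensitive libraries and at 467, 385 and 425 CPM in the resistant libraries. The group ranges overlapped, with the resistant libraries all inside the range of the sensitive ones. The means were 340 ± 202 and 426 ± 41.1 CPM (SD, n = 3 each), with a log2 fold change of 0.30 (SE 0.453, adjusted p = 0.940 by edgeR) that was -0.10 without sensitive replicate 2. Adgre1, the macrophage gene encoding F4/80, was low in the same library, at 370, 123 and 540 CPM in the sensitive and 439, 485 and 582 CPM in the resistant group, whereas Clec4f was at 2448, 4875 and 3420 CPM in the sensitive libraries and thus highest there. The part of library or cell makeup in the Mertk values was not tested.

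Tyro3 was at 1.63, 1.71 and 1.12 CPM in the sensitive and at 1.59, 1.26 and 1.04 CPM in the resistant libraries, with sensitive replicate 2 highest and resistant replicate 3 lowest and overlap between the groups. At 20 to 33 counts its log2 fold change of -0.27 had an SE of 0.491 (adjusted p = 0.941 by edgeR), and it was -0.07 without sensitive replicate 2, -0.13 without resistant replicate 3 and -0.44 without sensitive replicate 3. Cd300a, unlike Axl and Mertk, was not low in sensitive replicate 2. It was at 385, 405 and 331 CPM in the sensitive and at 422, 320 and 403 CPM in the resistant libraries, with the lowest and the highest library both in the resistant group. The log2 fold change was -0.05 (SE 0.220, adjusted p = 0.974 by edgeR), and the value was 0.03 when libraries were scaled by their totals alone.

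Among the ligands, Gas6 had the largest log2 fold change of the 10 genes. It was at 40.8, 28.1 and 66.7 CPM in the sensitive libraries and at 49.7, 68.7 and 85.8 CPM in the resistant libraries. The highest values were in resistant replicates 3 and 2, but sensitive replicate 3 lay above resistant replicate 1, so the groups overlapped. The means were 45.2 ± 19.7 and 68.1 ± 18.1 CPM (SD, n = 3 each), and the log2 fold change was 0.55 (SE 0.351, unadjusted p = 0.164, adjusted p = 0.940 by edgeR). It was 0.34 without sensitive replicate 2 and 0.35 without resistant replicate 3. Without sensitive replicate 3 it was 0.94, with an unadjusted p of 0.0246 and an adjusted p of 0.659 by edgeR, where the adjusted p over all alternatives ran from 0.659 to 1.00.

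Pros1, which serves the TAM receptors as well as blood coagulation control, was at 61.4, 42.6 and 97.5 CPM in the sensitive and at 56.7, 38.7 and 84.2 CPM in the resistant libraries. Replicate 3 was the highest and replicate 2 the lowest in both groups, and the groups overlapped almost wholly. The log2 fold change was -0.22 (SE 0.371, adjusted p = 0.940 by edgeR). Mfge8, which links phosphatidylserine to αv integrins in place of the TAM receptors, was at 22.7, 26.3 and 22.6 CPM in the sensitive and at 16.2, 24.4 and 35.4 CPM in the resistant libraries. The sensitive libraries lay inside the range of the resistant ones, and the log2 fold change was 0.02 (SE 0.336, adjusted p = 0.994 by edgeR).

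Elmo1 and Dock1 form a complex that activates the GTPase Rac1 and drives the membrane around the corpse. Elmo1 was at 104, 24.8 and 84.4 CPM in the sensitive and at 92.1, 66.5 and 63.2 CPM in the resistant libraries, so that sensitive replicate 2 again lay far below the rest. Its log2 fold change was 0.04 (SE 0.437, adjusted p = 0.988 by edgeR) and -0.35 without that library. Dock1 was at 51.5, 31.7 and 64.8 CPM in the sensitive and at 54.8, 39.6 and 53.3 CPM in the resistant libraries. Replicate 2 was lowest in both groups, and the log2 fold change was -0.05 (SE 0.264, adjusted p = 0.975 by edgeR).

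Xkr8 was at 7.08, 4.26 and 7.98 CPM in the sensitive and at 7.77, 6.68 and 11.03 CPM in the resistant libraries. The top value was in resistant replicate 3 and the bottom one in sensitive replicate 2, with the other 4 libraries interleaved. The log2 fold change was 0.35 (SE 0.342, adjusted p = 0.940 by edgeR), and it was 0.17 without sensitive replicate 2, 0.12 without resistant replicate 3 and 0.54 without sensitive replicate 3.

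**Figure D2:**
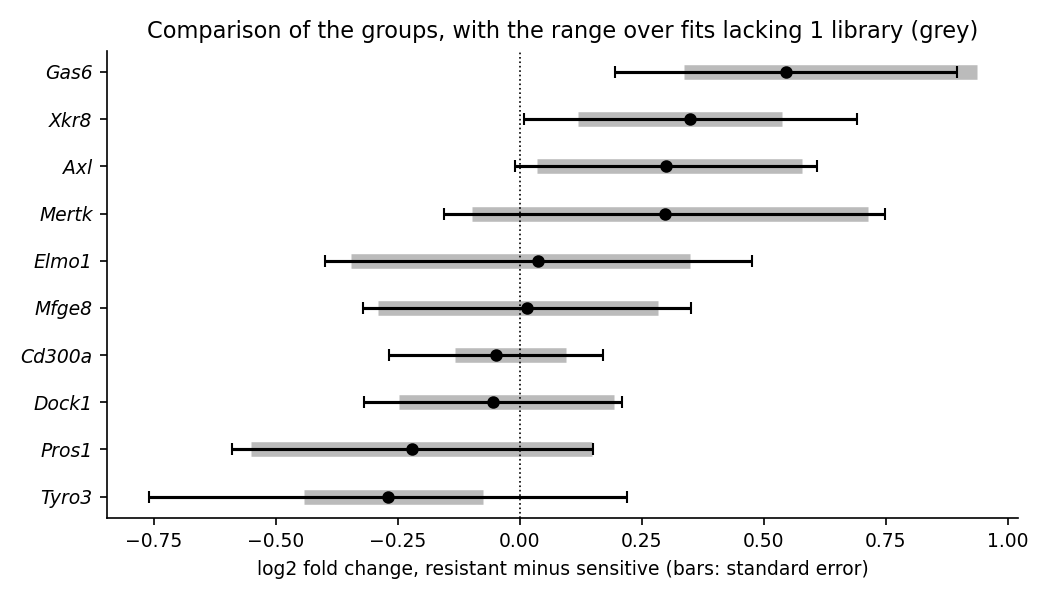
Log2 fold change (resistant minus sensitive) of each of the 10 genes as a black point with its standard error as a bar, and the range over the 6 fits that each lack 1 library as a gray band. The bands of Gas6, Xkr8 and Axl stayed above 0 and that of Tyro3 below 0, while those of the other 6 genes crossed 0; no gene had an adjusted p-value under 0.05.

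Sensitive replicate 2 was the lowest library for 6 of the 10 genes, namely Axl, Mertk, Gas6, Elmo1, Dock1 and Xkr8, and for 47.7% of all genes tested. Relative to the geometric mean of the other 5 libraries, it was 3.81-fold lower for Mertk, 3.25-fold for Elmo1, 2.33-fold for Axl and 2.15-fold for Gas6. Of all genes tested, 27.3% were lower there by at least 1 on the log2 scale, and the median was -0.31. Tyro3, Mfge8 and Cd300a were not lower in this library, with log2 differences of 0.38, 0.16 and 0.13. Among the other 5 libraries the highest CPM was 1.22 times the lowest for Axl, 1.31 times for Mertk and 1.32 times for Cd300a, against 2.10 times for Gas6, 2.19 times for Mfge8 and 2.52 times for Pros1. Over these 5 libraries the ranges of the abundant receptors were thus narrower than those of the ligands. Over all 6 libraries the highest CPM was 2.54 times the lowest for Axl, 4.41 times for Mertk and 1.32 times for Cd300a. For Gas6, Mfge8 and Pros1 it was 3.06, 2.19 and 2.52 times, so the contrast depended on leaving out sensitive replicate 2.

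A ratio of counts within a library does not depend on scaling between libraries. The ratio of Axl to Mertk was 1.75, 2.97 and 1.68 in the sensitive libraries and 1.84, 1.91 and 1.89 in the resistant libraries. All lay between 1.68 and 1.91 except sensitive replicate 2, in which Mertk stood further below the other libraries than Axl did. The means were 2.14 ± 0.723 and 1.88 ± 0.0337 (SD, n = 3 each), and the log2 ratio differed by -0.13 (exact two-sided permutation p = 1, where 3 libraries against 3 cannot go below 0.1). Without sensitive replicate 2 the difference was 0.13 (exact two-sided permutation p = 0.1). The groups then did not overlap, but the library left out held the outlying ratio, and the sign had changed.

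The ratio of Gas6 to Pros1 was 0.665, 0.659 and 0.685 in the sensitive libraries and 0.875, 1.77 and 1.02 in the resistant libraries. Every resistant library lay above every sensitive library, although neither ligand alone separated the groups. The sensitive values were nearly identical and the resistant ones spread widely, with means of 0.669 ± 0.0135 and 1.22 ± 0.482 (SD, n = 3 each). The log2 ratio was higher in the resistant group by 0.80 (exact two-sided permutation p = 0.1, the smallest this design allows), so a threshold of 0.05 could not be reached. Leaving out resistant replicate 2, in which Pros1 was lowest, brought the difference to 0.50, and leaving out resistant replicate 1 brought it to 1.01. In resistant replicate 2 the pan-endothelial marker sum was also lowest, at 78.3 CPM. The sum over 10 hepatic stellate cell markers was highest there, at 284.5 CPM against 70.7 to 136 CPM in the other libraries. Most of it was Col1a1 (133 CPM) and Acta2 (91.7 CPM). Dcn, the next most abundant of these markers, was at 24.4 CPM both there and in sensitive replicate 1. The sum over 8 hepatocyte markers was also highest in resistant replicate 2, at 135 CPM. The part of these cell types in the ratio was not tested.

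**Figure D3:**
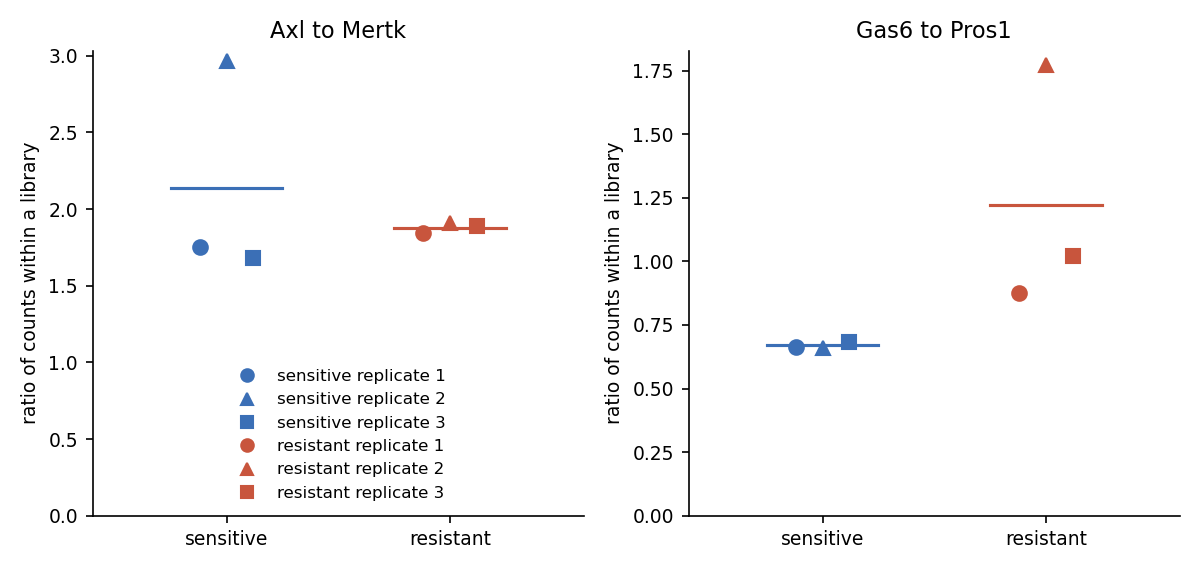
Ratio of counts within each library for Axl to Mertk (left) and Gas6 to Pros1 (right), with each library as a marker, the group mean as a bar and linear axes from 0. Sensitive replicate 2 stands alone at 2.97 for Axl to Mertk, and for Gas6 to Pros1 the 3 resistant libraries, from 0.875 to 1.77, lie above the 3 sensitive ones, from 0.659 to 0.685.

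The genes whose log2 CPM followed Axl most closely over the 6 libraries, among 9642 genes with an average log2 CPM of at least 3, were Map3k5 (Pearson's r = 0.999), Bach2 (0.999) and Sec24c (0.998). For Mertk they were Tmcc3 (0.999), Herc1 (0.998) and Cep350 (0.998), and for Gas6 they included Brwd1 (0.997) and Ttc3 (0.992). Sensitive replicate 2 shapes the patterns of Axl and Mertk, and without it r for these partners was between 0.964 and 0.990; Spearman's rho over the 6 libraries was between 0.943 and 1 for the genes named. These are the top of a ranking over 6 libraries that share preparation and are given as a description.

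The wider pathway was read through 104 other genes in 8 groups by role, of which 97 were tested. With edgeR, 0 were called after adjustment and 2 at an unadjusted p-value under 0.05, both with lower values in the resistant group, which is 2 of 97 beside 3.08% of all genes. Log2 fold changes were above 0 for 52 and below 0 for 45, with a median of 0.03. Without sensitive replicate 2, an alternative chosen after seeing the data, 39 were above and 58 below 0, with a median of -0.06. The groups of libraries did not overlap for 9 of the 97, beside 8.39% of all genes. Leaving out 1 library moved the count at unadjusted p to 0 without resistant replicate 3 and to 8 without sensitive replicate 3, the extremes of the 6 fits.

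The receptors other than the 4 above numbered 17 tested, 7 above and 10 below 0. Timd4 (Tim-4), the phosphatidylserine receptor and marker of resident Kupffer cells, was at 110, 138 and 94.0 CPM in the sensitive and at 82.0, 12.4 and 20.1 CPM in the resistant libraries. The groups did not overlap, with resistant replicate 1 near the sensitive level and resistant replicates 2 and 3 far below it. The log2 fold change was -1.70 (SE 0.663, unadjusted p = 0.0371, adjusted p = 0.940 by edgeR). Without sensitive replicate 2, its highest library, it was -1.44 (unadjusted p = 0.103 by edgeR). Cd36, a scavenger receptor, was at 290, 126 and 228 CPM in the sensitive and at 44.1, 531 and 1110 CPM in the resistant libraries. Resistant libraries held both its lowest and its highest values, and the log2 fold change of 1.37 had an SE of 0.935 (adjusted p = 0.940 by edgeR).

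The other genes whose groups did not overlap are named after their values were seen, and 9 of 97 is close to the 8.39% of all genes. Itgav, the αv chain that receives Mfge8, was at 87.1, 22.5 and 90.2 CPM in the sensitive and at 98.2, 100 and 149 CPM in the resistant libraries. Sensitive replicate 2 was far below the rest, and the log2 fold change was 0.78 with it and 0.39 without it. Its partner chain Itgb3 was at 153, 213 and 157 CPM in the sensitive and at 151, 18.2 and 127 CPM in the resistant libraries. Resistant replicate 2 was the low library here, and resistant replicate 1 lay just under the sensitive ones, with a log2 fold change of -0.93. Scarb1, a lipoprotein receptor that also binds phosphatidylserine, Sirpa, the receptor of the do-not-eat-me signal Cd47, Elmo2, a paralog of Elmo1, and Nr1h2, a sterol-sensing nuclear receptor, had log2 fold changes of 0.62, 0.34, 0.32 and 0.25, and of 0.37, 0.30, 0.18 and 0.14 without sensitive replicate 2. The adjusted p was 0.940 by edgeR for each of these 6 genes.

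Of the 9 tested genes that set the membrane distribution of phosphatidylserine, 3 were above and 6 below 0. The flippase gene Atp8a2 was at 0.876 to 1.31 CPM in the sensitive and 0.152 to 0.434 CPM in the resistant group, with a log2 fold change of -1.99 (SE 0.664, unadjusted p = 0.0194, adjusted p = 0.940 by edgeR). Its levels were near the floor of 0.145 to 0.170 CPM in the resistant libraries. Tmem30a, the shared subunit of flippases, was at 97.1 to 141.6 CPM in the sensitive and 142.2 to 187.5 CPM in the resistant group. On library totals the groups thus only just missed overlapping. The log2 fold change was 0.35, and 0.25 without sensitive replicate 2.

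The other ligands were dominated by complement C1q, which coats dying cells. C1qa was at 1761, 4331 and 3079 CPM in the sensitive and at 2692, 1940 and 1648 CPM in the resistant libraries, overlapping between the groups, with a log2 fold change of -0.66 (SE 0.419, adjusted p = 0.940 by edgeR). On the FPKM scale C1qa averaged 2476, where Gas6 averaged 22.2. Anxa1, an annexin that is externalized by dying cells, had a log2 fold change of -0.84 (SE 0.525), and of -0.39 without sensitive replicate 2. Its groups overlapped, and its lowest library was sensitive replicate 3, at 119 CPM. Of the 7 ligands tested 3 were above and 4 below 0.

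In the remaining groups no gene had an unadjusted p-value under 0.05 by edgeR over all 6 libraries, and sensitive replicate 2 moved the groups' balance. Without that library Vav3 of the engulfment machinery, named after its values were seen, was at -0.53 (unadjusted p = 0.00766, adjusted p = 0.984 by edgeR). Of 17 genes of the engulfment machinery, 9 were above and 8 below 0, with a median log2 fold change of 0.21 that was -0.01 without that library. Among those averaging 3 or more on the log2 CPM scale, the scaffold Bcar1 was at 0.61 and the adaptor Crkl at 0.41. Without sensitive replicate 2 they were at 0.64 and 0.11. Bcar1 was at 70.3 CPM in resistant replicate 3 and at 18.9 to 29.6 CPM in the other libraries. Genes of corpse digestion and metabolism were above 0 in 14 of 17, with a median of 0.14, but in 9 of 17, with a median of 0.01, without sensitive replicate 2, in which their summed level was 5445 CPM against 8060 to 11670 CPM in the other libraries. Rubcn, which acts in LC3-associated phagocytosis, was at 0.45 and Dnase2a, the lysosomal DNase, at -0.78, and at 0.17 and 0.01 without that library.

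Of 8 find-me genes 3 were above and 5 below 0, ranging from -1.63 to 0.42. By the same expression limit S1pr1 was at 0.42 and the nucleotide receptor P2ry6 at 0.29. Without sensitive replicate 2, S1pr1 was at 0.06 and P2ry6 at 0.12. The less abundant Cx3cr1, the fractalkine receptor, and Gpr132, a lysophospholipid receptor, named after their values were seen, were at -1.63 and -1.54. Their SEs were 1.39 and 0.824, and the groups overlapped for both. Cx3cr1 was at 16.9 CPM in sensitive replicate 3 and at 0.260 to 4.05 CPM in the other libraries. Without sensitive replicate 2, Cx3cr1 was at -2.18 and Gpr132 at -0.76. Of 8 do-not-eat-me genes 4 were above 0, ranging from -1.90 to 0.34, with Pecam1 at -0.93 and Cd24a at -0.66; without sensitive replicate 2, 1 of the 8 was above 0. Of 14 transcription factors and feedback genes 9 were above 0, and 6 without that library. Socs3, a feedback inhibitor known to be induced by TAM signaling, was at -0.77 (SE 0.57) over all 6 libraries. Nr1h3 was at -0.46 (SE 0.49) over all 6 libraries. Without sensitive replicate 2, Socs3 was at -0.79 and Nr1h3 at 0.15. The groups overlapped for both genes, and Socs3 was highest in resistant replicate 1, at 100.8 CPM.

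**Figure D4:**
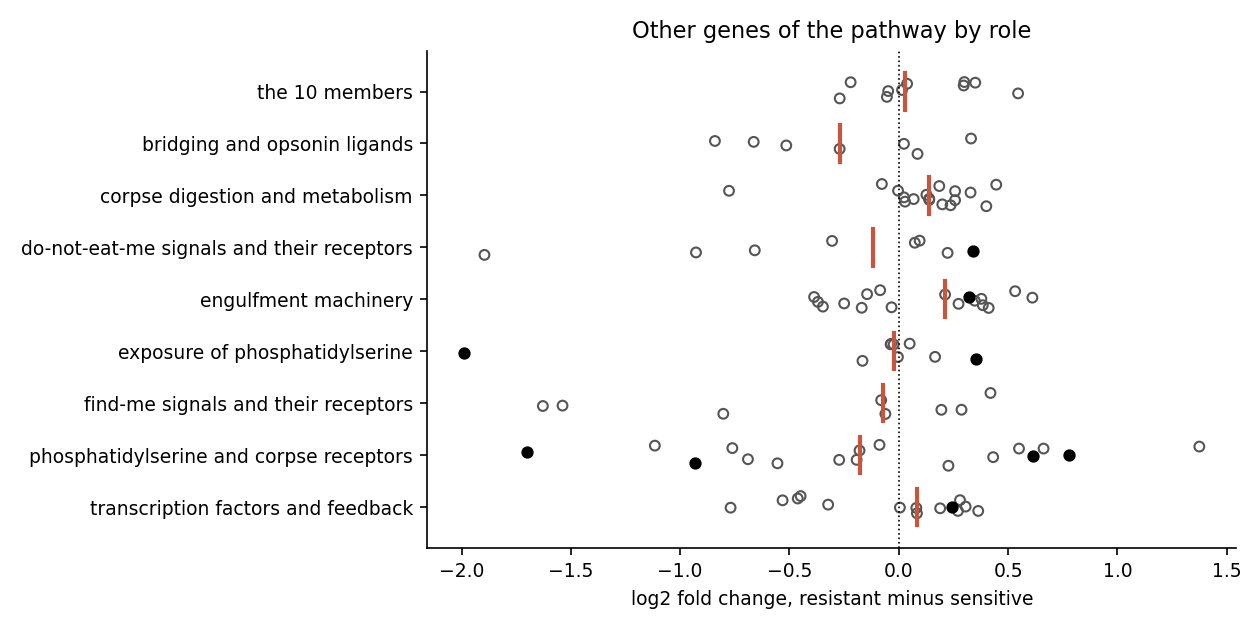
Log2 fold change (resistant minus sensitive) of the 10 efferocytosis genes and of the 97 other tested pathway genes in 8 groups by role, 1 circle per gene, with the median of each group as a red line and filled circles for genes whose groups of libraries did not overlap. None of the 10 and 9 of the 97 are filled, and the medians lie between -0.27 for the bridging and opsonin ligands and 0.21 for the engulfment machinery.

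The 10 genes are protein-coding and spread over 7 chromosomes of GRCm38 in GENCODE M21. Axl lies on chromosome 7 from 25757273 to 25788705, Mertk on chromosome 2 from 128698956 to 128802894, Gas6 on chromosome 8 from 13465374 to 13494490 and Pros1 on chromosome 16 from 62854307 to 62929346. Exons of Gas6 share 34 bases with Tmem255b on the opposite strand, and exons of Elmo1 share 403 bases with Gm32036. Both neighbors had 0 to 2 counts in any library.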

How the data were processed

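RNA-seq of 6 libraries labeled as mouse LSECs was analyzed. The authors deposited whole-number read counts per gene, without normalization, and FPKM values, each a count over its library's total and over 1 length per gene. The submitters' processing notes name HISAT2 2.0.5, featureCounts 1.5.0-p3 and the build mm9; the deposited lengths matched the merged exons of GENCODE M21 (GRCm38) within 1 base for 97.9% of 14886 tested genes, so GRCm38 coordinates are given here. The strand setting of the counting is not given in the sources used here. The labels name ribosomal RNA depletion for the libraries and the paper's methods also poly(A) selection. A further table of the authors' own comparison (group means, log2 fold changes, p-values) was not used.

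Groups and replicate numbers came from sample titles, which name LSECs from xenografts, as do the other sample labels; the text for the series as a whole instead describes lx-2 cells, a stellate cell line, in conditioned media. Counts were tested in R 4.3.3 with edgeR 4.0.16 (filterByExpr with a minimum count of 10, TMM, robust quasi-likelihood test, two-sided, no covariate), resistant against sensitive, with Benjamini-Hochberg adjustment over 15474 genes and a threshold of 0.05. Standard errors are those implied by the F statistic. CPM values printed per library used library totals alone, as did the overlap of groups. Ratios within libraries had 0.5 counts added for the exact permutation test of log2 values. The biological coefficient of variation was 42.2%. Alternatives were RLE size factors, library totals, other filters, DESeq2 1.42.0, limma-voom (limma 3.58.1), a replicate block and the omission of each library in turn. Reads carried no molecular identifiers, so floors cover counting error only.

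The genes and lists were chosen with earlier results of these data known. All 10 genes are named. Of the 104 pathway genes, the text names any with an adjusted p-value under 0.05, the 2 of each group whose log2 fold change was farthest from 0 among genes averaging 3 or more on the log2 CPM scale, and up to 10 with an unadjusted p-value under 0.05; the genes named after their values were seen are marked. Some genes that these rules or the ranking by likeness would name are not reported here. At most 3 markers of a cell type, those with the highest mean CPM, and 6 defining markers were eligible, besides any marker at 0 in every library. The sums over 8 hepatocyte markers (28.0 to 135 CPM), 8 lymphocyte markers (0.152 to 6.88 CPM) and 5 epithelial markers (10.8 to 242 CPM) complete the marker lists. The epithelial markers were counted on mouse genes while the xenograft line is human, so their sum gives no measure of tumor content. Promoter sequences are from RefSeq (GRCm38.p6).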

Additional observations from a re-analysis of the deposited data

How the results depend on the processing

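No alternative gave an adjusted p-value under 0.05 to any of the 10 efferocytosis genes. With edgeR, the number of the 10 at an unadjusted p under 0.05 was 0 to 1 when 1 library was left out, the 1 being Gas6 without sensitive replicate 3. Of 130 fold changes of these genes under 13 alternatives each, 113 kept their direction and 17 changed it; the cause was not tested. The values of log2 fold change that changed direction were those of Mfge8 (0.02 as reported) at -0.0148 with at least 10 counts in every library, -0.0482 with limma-voom and -0.0511 with the replicate block, and those of Cd300a at 0.029 with library totals alone and 0.0379 with no filter. With 1 library left out, log2 fold changes ran from -0.10 to 0.71 for Mertk, -0.55 to 0.15 for Pros1, -0.29 to 0.28 for Mfge8, -0.13 to 0.0945 for Cd300a, -0.35 to 0.35 for Elmo1 and -0.25 to 0.19 for Dock1, which crossed 0, and 0.34 to 0.94 for Gas6, 0.12 to 0.54 for Xkr8, 0.03 to 0.58 for Axl and -0.44 to -0.07 for Tyro3, which did not. The difference in the log2 ratio of Axl to Mertk ran from -0.28 to 0.13. That of Gas6 to Pros1 ran from 0.50 to 1.01 and stayed above 0 in every alternative run.

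Of the pathway genes, 2 had an unadjusted p under 0.05, and 1 with at least 10 counts in every library. With 1 library left out the number was 0 to 8: 4 without sensitive replicate 2, 8 without sensitive replicate 3, 7 without resistant replicate 1, 1 without resistant replicate 2 and 0 without resistant replicate 3. Over all genes, the number at an adjusted p under 0.05 went from 0 to 2 with no filter and 24 with DESeq2. The number at an unadjusted p under 0.05 went from 476 (83 higher, 393 lower) to 2036 with no filter (205 higher, 1831 lower), 732 with DESeq2 (124 higher, 608 lower) and 167 to 1056 with 1 library left out, the extremes being without resistant replicate 3 and without sensitive replicate 3; without resistant replicate 2 it was 245.

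Samples of different groups share only a replicate number: the correlation of their deviations from the group means was -0.001, 0.034 and 0.194 for numbers 1, 2 and 3. With the replicate block, 467 genes had an unadjusted p under 0.05 and 0 an adjusted one, the count among the 10 genes was 0, and the Gas6 to Pros1 difference was 0.80 (exact sign-flip permutation p = 0.25, the smallest for 3 pairs). Depth limits Tyro3 most, at 20 to 33 counts.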
